A study of Homo sapiens with 2 samples.

Results

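The immediate early AP-1, EGR1 and MYC genes were taken as all probe sets annotated to a single gene symbol for 10 listed genes, here with their Entrez gene numbers: FOS (2353), FOSB (2354), FOSL1 (8061), FOSL2 (2355), JUN (3725), JUNB (3726), JUND (3727), ATF3 (467), EGR1 (1958) and MYC (4609). They had 24 probe sets, of 41097 single-symbol probe sets that stood for 19775 genes on the array. AP-1 is a dimer of basic leucine zipper proteins in which a FOS protein pairs with a JUN protein, or JUN proteins pair with each other. ATF3 belongs to the same class of DNA-binding proteins, EGR1 is a zinc finger factor, and MYC binds DNA as a dimer with MAX. Transcription of many of these genes is switched on within minutes of a growth factor or stress signal, to a large part through the ERK and JNK kinases. Others, such as JUND, are expressed without stimulation in many cells. Most mRNAs of the genes so induced are short-lived, so that their levels can reflect signaling at the time of harvest. EGFR, the receptor blocked by erlotinib, is one of the receptors that feed the ERK pathway in lung epithelial cells.

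HCC4006ER is an erlotinib-resistant NSCLC (non-small cell lung cancer) cell line with an EMT (epithelial-mesenchymal transition) phenotype, derived by long exposure of HCC4006 cells to rising concentrations of erlotinib, and HCC4006 is the erlotinib-sensitive parental line, whose phenotype the labels give as wildtype. Both lines carry a deletion in exon 19 of EGFR. Each was grown for 48 hours in RPMI medium with 10% serum and received no further treatment, and the resistant line was profiled as a whole, not as one of the clones made from it. RNA of 3 preparations per line was mixed and hybridized to 1 Affymetrix HG-U133 array, so that there was no replicate, no test and no p-value, and differences are given as values of 2 arrays. In such bulk RNA, fewer cells with a transcript and less of it per cell cannot be told apart.

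Signals are MAS5 intensities in arbitrary units on a linear scale. A signal was taken as above background where it passed the 95th percentile of 127 probe sets for olfactory and bitter taste receptors, which was 91.6 on the HCC4006ER array and 96.2 on the HCC4006 array. Differences are given as log2 folds, HCC4006ER over HCC4006, and the methods' threshold of 1.5-fold was used for calls. Between probe sets of the same gene the log2 fold had a pooled SD of 0.27 (5264 genes), which leaves out variation between arrays and cultures. The signals went in part against the EMT label: E-cadherin (CDH1) read 11041 on the HCC4006ER array and 10469 on the HCC4006 array, and ZEB1 was not above background on either, at 53.1 and 42.5, while vimentin (VIM) read 9057 against 5926. N-cadherin (CDH2), a mesenchymal marker, was 2.05-fold higher, at 2419 on the HCC4006ER array and 1181 on the HCC4006 array. ERBB3, which encodes the receptor HER3, read 1305 and 1198 on those arrays. The paper reports, from its microarray, much higher ZEB1 mRNA in HCC4006ER cells and a loss of E-cadherin and HER3 mRNA, which these signals did not show in either direction. Whether the array labelled HCC4006ER holds the RNA it names could not be settled from 2 arrays. This bears on the direction of every fold given here, and on whether any fold is a difference between the resistant and the parental line. The arrays are therefore named by their labels. All 6 epithelial markers listed were above background on both arrays, with summed signals of 78789 on the HCC4006ER array and 79735 on the HCC4006 array. Of 8 fibroblast markers 1 was above background on the HCC4006ER array and 2 on the HCC4006 array, with LUM, DCN and COL3A1 under it on both and summed signals of 1162 and 954. Most of both sums was COL1A1, at 965 on the HCC4006ER array and 591 on the HCC4006 array, 1.63-fold higher. Of 5 leukocyte markers measured, 0 and 2 were above background, the higher of them at 110 on the HCC4006 array, and of 5 endothelial markers 1 was on each array.

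Of the 10 genes, 8 were above background. ATF3 and FOSL1 were higher past 1.5-fold on the HCC4006ER array, JUNB and EGR1 were lower, and FOSL2, JUN, JUND and MYC lay within 1.5-fold. Among all 11896 genes above background, 7.99% were higher past 1.5-fold and 11.2% were lower, so that 19.1% were past the threshold in either direction. That split depends on scaling. With both arrays scaled to one median, 12.4% of genes were higher and 7.40% lower, and the median log2 fold of all genes was 0.10, while the member counts stayed at 2 higher and 2 lower. Of the 20 member probe sets above background, 3 were higher, 3 were lower and 14 lay within 1.5-fold, where 9.25% of all probe sets above background were higher and 10.1% lower. Over genes, the shares were 7.92% and 9.16% of the 7858 genes with a signal over 500 on at least 1 array. The median log2 fold of the 8 genes was 0.12, against -0.04 over all genes above background. The group did not move in one direction, and with 8 genes and 1 array per line its counts are a description only.

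**Figure D1:**
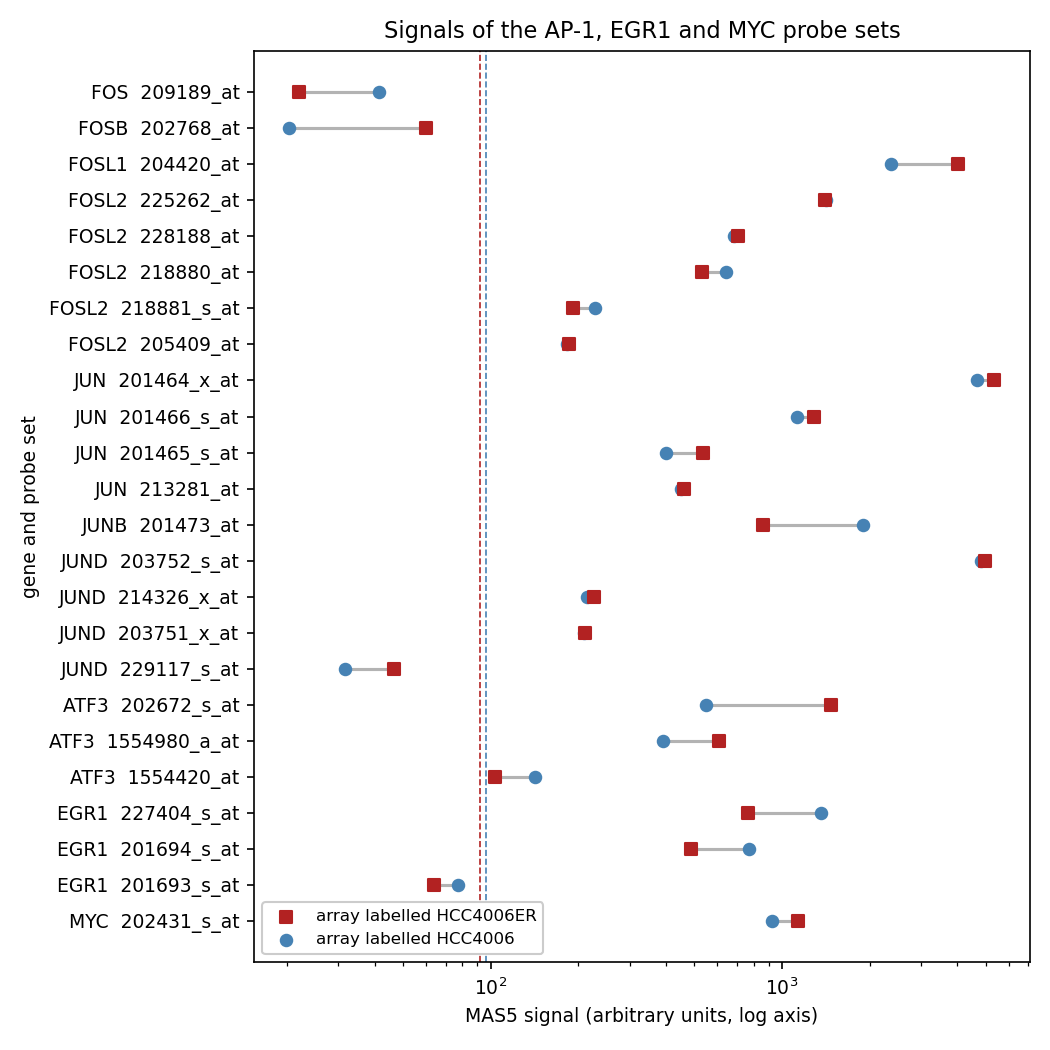
MAS5 signal (log axis) of the 24 probe sets of the 10 genes, with squares for the HCC4006ER array and circles for the HCC4006 array. Dashed vertical lines stand at background, 91.6 for HCC4006ER and 96.2 for HCC4006. FOS and FOSB lie left of both lines, the squares of FOSL1 and of the brighter ATF3 probe sets lie to the right of their circles, and those of JUNB and EGR1 lie to the left.

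The promoters of 4 of these genes are shown because they include both genes that were higher or lower and JUN, which was bright and nearly equal. The sequences are the 250 bases before the annotated transcription start, from RefSeq on GRCh38.p14. The set of promoters used here held entries for 8 of the 10 genes, with 2 starts for ATF3. It held none for FOSL1 or MYC, whose promoters were therefore not read. Capitals mark matches on either strand to the CArG box, where the serum response factor SRF binds, to TGANTCA (AP-1), TGACGTCA (cAMP response element), TGACATCA, GCGNGGGCG (EGR), CACGTG (E-box, bound by MYC with MAX) and TATAAA. TGACATCA was added after the sequences had been read.
ATF3, first start, chr1:212565157-212565406 (plus strand): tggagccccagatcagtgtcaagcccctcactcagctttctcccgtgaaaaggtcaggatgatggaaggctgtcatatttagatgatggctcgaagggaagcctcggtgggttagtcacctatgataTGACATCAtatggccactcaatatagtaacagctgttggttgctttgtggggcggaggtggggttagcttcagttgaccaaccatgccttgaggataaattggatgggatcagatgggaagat
JUNB, chr19:12791236-12791485 (plus strand): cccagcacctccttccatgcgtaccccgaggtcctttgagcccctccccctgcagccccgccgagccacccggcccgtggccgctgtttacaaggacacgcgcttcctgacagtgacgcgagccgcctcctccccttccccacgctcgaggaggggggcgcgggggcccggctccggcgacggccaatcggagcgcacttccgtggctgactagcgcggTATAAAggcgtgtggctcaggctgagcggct
EGR1, chr5:138465229-138465478 (plus strand): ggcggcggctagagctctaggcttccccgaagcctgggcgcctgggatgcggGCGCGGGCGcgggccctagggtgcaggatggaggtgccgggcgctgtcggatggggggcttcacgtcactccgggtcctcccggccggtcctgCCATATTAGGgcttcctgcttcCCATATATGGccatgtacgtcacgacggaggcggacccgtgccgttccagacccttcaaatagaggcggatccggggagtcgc
JUN, chr1:58784048-58784297 (minus strand): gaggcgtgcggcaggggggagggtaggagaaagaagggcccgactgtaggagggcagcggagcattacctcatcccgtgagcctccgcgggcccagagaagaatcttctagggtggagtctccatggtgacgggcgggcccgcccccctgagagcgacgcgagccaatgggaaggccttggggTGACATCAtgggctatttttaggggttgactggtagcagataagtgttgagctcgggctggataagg

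EGR1 held 2 CArG boxes, 105 to 96 and 83 to 74 bases before its start, and an EGR match 198 to 190 bases before it, while 1.14% of 27305 promoters of the same length held a CArG box and 8.25% an EGR match. JUN and ATF3 both held TGACATCA, 67 to 60 and 123 to 116 bases before the start, a match found in 2.45% of promoters. JUNB held TATAAA 31 to 26 bases before its start, as did FOS (33 to 28) and FOSB (30 to 25), and 11.1% of promoters held it anywhere in the window. JUND held TGACGTCA 200 to 193 bases before its start (1.77% of promoters), the second ATF3 start had TATAAA only, at 230 to 225 bases before it, and FOSL2 had no match. No promoter of the 8 genes matched TGANTCA (6.60% of promoters) or CACGTG (6.49%). A match describes letters only and shows no binding.

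ATF3, a stress-induced factor that can repress or activate depending on its partner, was the member with the largest difference, and its probe sets disagreed. Its brightest probe set read 1477 on the HCC4006ER array and 549 on the HCC4006 array, 2.69-fold higher (log2 fold 1.43). The second read 610 and 392 on the same arrays, 1.56-fold higher. The dimmest was lower, at 103 on the HCC4006ER array and 142 on the HCC4006 array (log2 fold -0.46), both little above background. Of 11896 genes above background, 121 had a log2 fold at least as high as that of the brightest ATF3 probe set. Averaged over the 3 probe sets, the ATF3 log2 fold was 0.54 and no longer passed 1.5-fold, and the dimmest is also the value left when probe sets marked as matching several transcripts are taken out. Which transcripts of ATF3 each probe set reads was not tested.

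FOSL1 encodes Fra-1, a FOS protein that lacks the strong activation domain of FOS and is known from invasive and mesenchymal-like carcinoma cells. Its single probe set read 4018 on the HCC4006ER array and 2377 on the HCC4006 array. It was 1.69-fold higher (log2 fold 0.76, or 2.76 times the SD between probe sets), a difference that 552 of 11896 genes matched or passed. Both signals lay far above background. With 1 probe set there was no second reading of FOSL1 on these arrays.

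FOSL2 did not share that difference, and FOS and FOSB could not be compared. FOSL2 (Fra-2) had 5 probe sets, all above background, and all lay within 1.5-fold, with log2 folds of -0.27 to 0.05. The brightest read 1409 on the HCC4006ER array and 1422 on the HCC4006 array. FOS itself was not above background in its single probe set, at 22.0 on the HCC4006ER array and 41.3 on the HCC4006 array. FOSB was not above background either, at 60.0 and 20.4 on those arrays. No fold is given for FOS or FOSB, and at these signals a difference between the lines was not measurable.

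**Figure D2:**
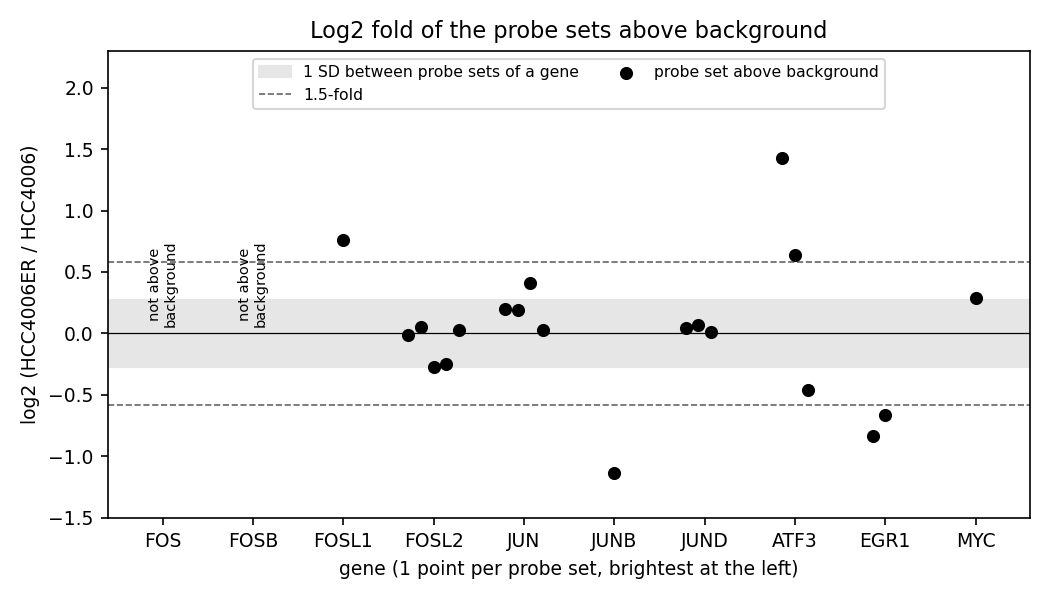
Log2 fold (HCC4006ER over HCC4006) of each probe set above background, grouped by gene with the brightest probe set at the left of each gene; dashed lines mark 1.5-fold and the grey band 1 SD (0.27) between probe sets of a gene. FOSL1 at 0.76 and the brightest ATF3 probe set at 1.43 lie over the upper line, JUNB at -1.14 and both EGR1 points lie under the lower line, and the third ATF3 point is on the other side of 0.

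Among the JUN genes only JUNB passed the threshold. JUNB, a weaker activator than JUN that can oppose it in AP-1 dimers, read 861 on the HCC4006ER array and 1897 on the HCC4006 array in its single probe set. This was 2.20-fold lower (log2 fold -1.14), and 306 of 11896 genes were at least as low. JUN, the AP-1 subunit that JNK phosphorylates, had 4 probe sets, all higher on the HCC4006ER array but within 1.5-fold, with log2 folds of 0.03 to 0.41. The brightest read 5365 on the HCC4006ER array and 4661 on the HCC4006 array, and its suffix (_x_at) marks possible cross-hybridization. JUND, which many cells express without stimulation, read 4981 and 4834 in its brightest probe set, and its 3 probe sets above background had log2 folds of 0.01 to 0.07, all smaller than the SD between probe sets. A further JUND probe set was not above background, at 46.4 on the HCC4006ER array and 31.6 on the HCC4006 array.

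EGR1, which ERK signaling induces through SRF and its ternary complex partners, was lower in both probe sets above background. The brightest read 762 on the HCC4006ER array and 1361 on the HCC4006 array, 1.78-fold lower (log2 fold -0.84), and 649 of 11896 genes were at least as low. The second read 487 and 770, 1.58-fold lower. The last was not above background on either array, at 63.9 and 77.3. Averaged over all 3, with the dim signals raised to background, the log2 fold of EGR1 was -0.52 and no longer passed 1.5-fold, while over the 2 probe sets above background it was -0.75 and did.

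MYC, the driver of ribosome production and cell growth, read 1134 on the HCC4006ER array and 926 on the HCC4006 array in its single probe set. Its log2 fold of 0.29 was about as large as the SD between probe sets (1.07 times) and lay within 1.5-fold. In the ranking of all genes above background it stood at percentile 80.2, between JUN at 73.9 and FOSL1 at 95.4. ATF3 stood at percentile 98.99, EGR1 at 5.45 and JUNB at 2.57, and FOSL2 and JUND stood near the middle at 52.8 and 59.1.

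**Figure D3:**
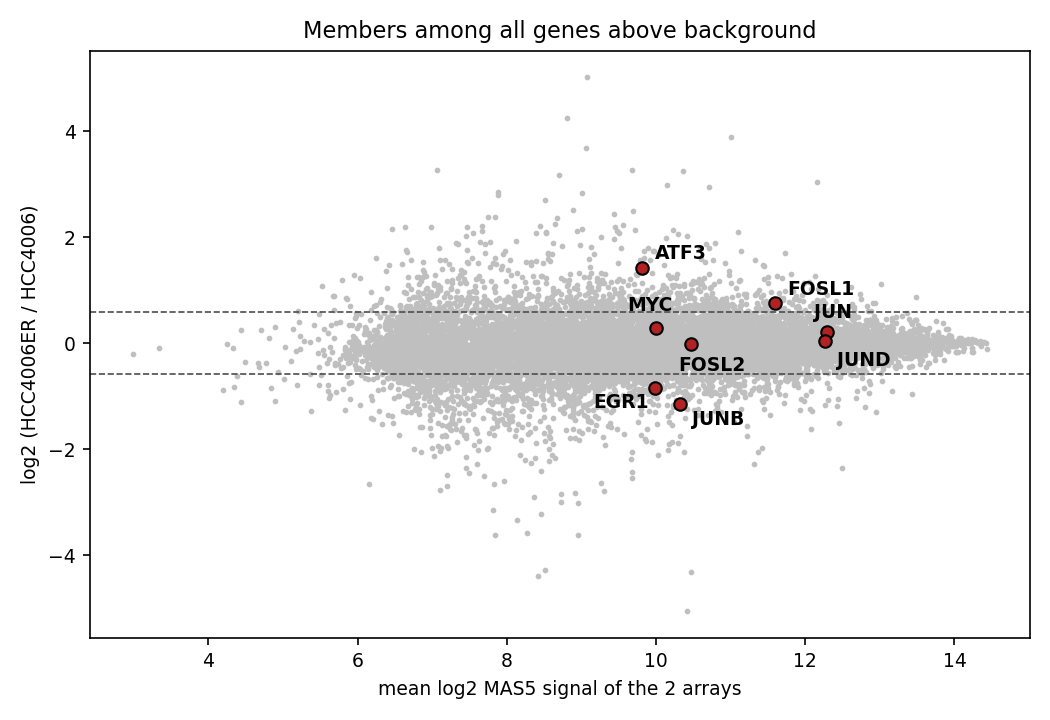
Log2 fold (HCC4006ER over HCC4006) against mean log2 MAS5 signal for the 11896 genes above background, 1 grey point per gene from its brightest probe set, with the 8 members above background in red and dashed lines at 1.5-fold. ATF3 and FOSL1 lie over the upper line, EGR1 and JUNB under the lower line, and JUN and JUND at the bright end close to 0.

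Other basic leucine zipper factors that pair with AP-1 proteins or share their sites moved upward where they passed the threshold. Of 17 above background, 4 were higher past 1.5-fold, none was lower and 13 lay within it, with a median log2 fold of 0.07. For this list and the related lists below, the shares over all genes above background were 7.99% higher and 11.2% lower. With both arrays scaled to one median these shares were 12.4% and 7.40%. The lists are small, and their counts are a description only. MAFF, a small MAF protein without an activation domain, read 2629 on the HCC4006ER array and 1066 on the HCC4006 array (2.47-fold). CREM, a modulator of cAMP-responsive genes, read 784 against 376 (2.09-fold). MAF was at least 2.04-fold higher, at 196 against a signal under background, and MAFG was 1.58-fold higher. Averaged over all probe sets of each gene, MAF and MAFG lay within 1.5-fold, as did MAF (log2 fold 0.47) with the background at the 99th percentile.

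Other immediate early genes moved both ways. Of 30 above background among 37 listed, 3 were higher, 5 were lower and 22 lay within 1.5-fold, with a median log2 fold of -0.14. EGR3 and NR4A2, named after their values were seen, count as within, but their folds are bounds only. EGR3 read 97.5 on the HCC4006ER array and 37.4, under background, on the HCC4006 array. NR4A2 read 65.4, under background, and 105. With dim signals not raised 4 genes were higher and 6 lower, and with both arrays scaled to one median 3 and 3. SGK1, a serum- and glucocorticoid-induced kinase, read 1844 on the HCC4006ER array and 660 on the HCC4006 array (2.79-fold higher). DUSP1, a phosphatase that switches off MAP kinases, read 1883 against 804 in its brightest probe set, 2.34-fold higher, but its log2 fold was 0.34 averaged over all its probe sets and 0.55 over those above background, both within 1.5-fold. PTGS2 (cyclooxygenase-2) was the most different of these genes, at 493 on the HCC4006ER array and 1723 on the HCC4006 array (3.50-fold lower), and ID1, an inhibitor of helix-loop-helix factors, read 5032 against 12425 (2.47-fold lower). EGR4, NR4A1, NR4A3, DUSP2 and ARC were not above background on either array; these 5 are named after their values were seen.

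SRF and its partners act upstream of members, while the EGR corepressors act on EGR proteins. Together these genes had 0 of 8 higher and 2 lower. NAB2, which binds EGR1 and represses its targets, was 1.55-fold lower, at 191 on the HCC4006ER array and 296 on the HCC4006 array, and the SRF coactivator MRTFB was 1.76-fold lower. MRTFB lay within 1.5-fold when averaged over its probe sets, and NAB2 with both arrays scaled to one median. Under that scaling the list had 1 gene higher and 1 lower, the higher one being SRF, at 545 on the HCC4006ER array and 399 on the HCC4006 array and within 1.5-fold otherwise (log2 fold 0.45). Of 21 kinases upstream of the members that were above background, 3 were higher and 4 were lower, with a median log2 fold of -0.07. MAPK3, which encodes ERK1, read 316 on the HCC4006ER array and 784 on the HCC4006 array (2.48-fold lower). The p38 activator MAP2K6 was at least 3.05-fold lower (log2 fold -1.61), a bound that shrank to -0.78 with the background at the 99th percentile and to -0.84 averaged over all its probe sets. MAPKAPK3, a kinase downstream of p38, was 1.96-fold lower. RPS6KA5 (MSK1), a chromatin kinase of the immediate early response, was 2.05-fold higher, and within 1.5-fold when averaged over all its probe sets. MAPK8, which encodes the JUN kinase JNK1 and is named after its value was seen, read 1637 against 970 (1.69-fold higher).

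**Figure D4:**
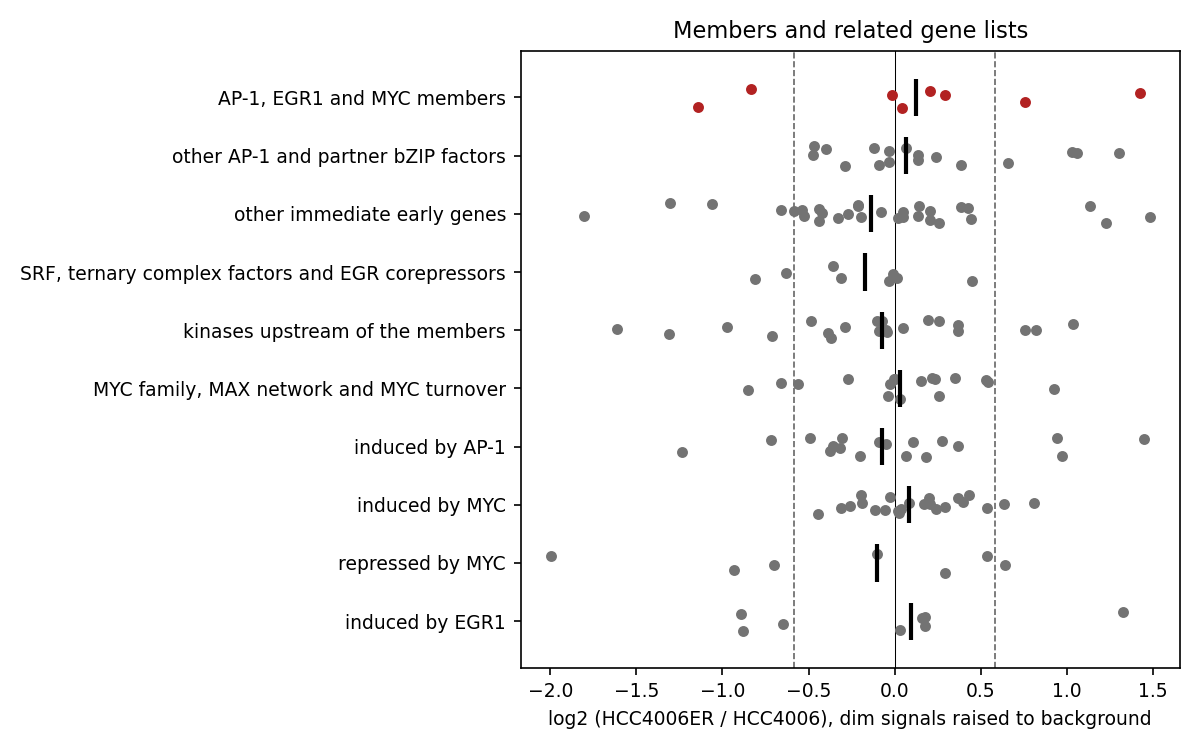
Log2 fold (HCC4006ER over HCC4006, a dim signal raised to its background level) of the genes above background in the member group (red) and 9 related lists (grey), 1 point per gene. A black bar gives each median, and 1.5-fold is drawn as dashed lines. Points past the lines lie on both sides for most lists, and the medians run from -0.17 to 0.12.

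Genes known as targets of AP-1 and EGR1 moved both ways. Of 18 genes known to be induced by AP-1, 3 were higher, 2 were lower and 13 lay within 1.5-fold, with a median log2 fold of -0.07. Among the 13, MMP1, MMP10 and S100A9, named after their values were seen, were under background on the HCC4006ER array. They read 21.4, 22.9 and 4.30 there against 113, 119 and 118 on the HCC4006 array, so their folds are bounds only. With the background at the 90th percentile, or with dim signals not raised, 5 genes were lower. With it at the 99th percentile 1 was. The cytokine gene IL11 read 4628 on the HCC4006ER array and 1695 on the HCC4006 array (2.73-fold higher), LIF was 1.92-fold higher and CXCL8 1.96-fold higher, the last within 1.5-fold when averaged over its probe sets. The squamous protein gene IVL was at least 2.35-fold lower, but within 1.5-fold (log2 fold -0.40) with the background at the 99th percentile. IL11 had a log2 fold of 1.45 in its brightest probe set and of 2.34 in the one that differed most. Of 8 genes known to be induced by EGR1, ICAM1 was higher, at 796 against 317 (2.51-fold), 3 were lower and 4 lay within 1.5-fold. The 3 lower ones were GDF15 (1.86-fold), the growth factor gene PDGFA (1.84-fold) and the matrix gene THBS1 (1.57-fold). The median log2 fold of the 8 genes was 0.10, so the list as a whole was not lower. Averaged over all probe sets, GDF15 and THBS1 lay within 1.5-fold, as did THBS1 with both arrays scaled to one median.

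Around MYC, 2 of 23 genes known to be induced by it, 4 of 7 known to be repressed by it and 3 of 17 in its network passed 1.5-fold. Of the induced genes, 21 lay within 1.5-fold, none was lower and 2 nucleolar genes were higher, RRP12 (1.75-fold) and NOLC1 (1.55-fold), neither of them past the threshold when averaged over all its probe sets. The median log2 fold was 0.08. Of the repressed genes, 3 lay within 1.5-fold, the stress gene GADD45A was 1.56-fold higher and 3 were lower, NDRG2 (3.99-fold), NDRG1 (1.91-fold) and the cell cycle inhibitor CDKN1A (1.63-fold, and within 1.5-fold with both arrays scaled to one median). The value of NDRG2 depended on the setting, with a log2 fold of -2.00 as given, -1.003 averaged over all its probe sets and -1.38 with the background at the 99th percentile. In the MYC and MAX network, 14 of 17 genes lay within 1.5-fold. The deubiquitinase gene USP36 was 1.90-fold higher, at 1275 on the HCC4006ER array and 671 on the HCC4006 array, and the MYC antagonist gene MXD3 was 1.81-fold lower. MYCL, a MYC relative, was at least 1.58-fold lower, at a signal under background on the HCC4006ER array against 145 on the HCC4006 array, and lay within 1.5-fold under 4 alternatives. MAX, the partner of MYC and named after its value was seen, read 4424 and 4548 on those arrays, and MYCN was not above background on either.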

How the data were processed

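RNA of 3 preparations per cell line was mixed and hybridized to 1 Affymetrix HG-U133 array each. For each array, the authors deposited intensity values of 54675 probe sets from MAS5. GCOS 1.4 also stands in the submitters' processing notes. The trimmed mean of the values was 500.1 on both arrays. Gene names came from the platform annotation, where 41097 probe sets had 1 symbol, 1801 several and 11777 were not listed; 41043 were matched by gene identifier to RefSeq symbols (GRCh38.p14). Where a gene had several probe sets, the one brightest over both arrays (mean of log2 signals) stood for it. A dim signal was raised to the background level of its array before a fold was taken, and such folds are given as "at least". No p-value was computed, and having 2 arrays limits the precision. The members and gene lists were chosen with earlier results of these data known. Of each list up to 4 genes with the largest fold past 1.5-fold were named, and others are marked. Listed genes without a single-symbol probe set were not analysed here. Gene values and folds were tested on simulated data. There, all probe sets of a changed gene had the same fold, and only genes well above background were changed. The simulation therefore did not cover probe sets that disagree or changed genes with dim signals. Python 3.11.15, numpy 2.4.6, pandas 2.3.3 and matplotlib 3.10.9 were used.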

Additional observations from a re-analysis of the deposited data

How the results depend on the processing

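The calls of FOSL1 and JUNB stayed past 1.5-fold under all 9 alternatives that gave a fold for them, with log2 folds of 0.75 to 0.89 and of -1.15 to -1.003. Each has 1 probe set, far above background, so only median scaling and quantile normalization (equal signal distributions on both arrays) could change its fold. The other alternatives returned the same value and are no further check of these calls, and the same holds for MYC. FOSL2, JUN, JUND and MYC stayed within 1.5-fold under every alternative that gave them a value. The counts of 2 members higher and 2 lower became 1 and 1 when every probe set of a gene entered its mean log2 fold, where ATF3 was 0.54 and EGR1 -0.52. They were also 1 and 1 once the _s_at, _x_at and _a_at probe sets, whose suffixes mark several matches, were taken out, where ATF3 turned to -0.46 and EGR1, JUND and MYC had no probe set left, and 1 and 1 at a 2-fold threshold. Averaged over the probe sets above background, an alternative chosen after seeing the data, 1 member was higher and 2 were lower. Scaling both arrays to one median moved the log2 folds of genes above background on both arrays up by 0.14 and turned the split of all genes past 1.5-fold to 12.4% higher and 7.40% lower, and the 8 members kept their sides of the threshold. Of 180 counts over the related lists under the alternatives, 134 stayed within 1.5 times and 46 moved. Of 31 other genes named by the rule, 17 stayed past 1.5-fold under all alternatives run and 14 did not under at least 1. Some of the 17, such as SGK1 and LIF, kept the same value when averaged over all probe sets, so that alternative was no further check of them. Others, such as CREM, had no value under at least 1 alternative, which was then left out for that gene. MYCL, at least 1.58-fold lower from its brightest probe set, had a log2 fold of 0.17 with the background at the 99th percentile. No fold was computed for FOS or FOSB under any alternative, since neither passed the background. No paired analysis was possible because each cell line had 1 array, and no replicate could be left out.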
